A study of Mus musculus with 32 samples.

Results

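The 5 lymphoid members of the BTB zinc finger family described here were measured in mouse cell lines given a guide against Bcl11b or a control guide: Zbtb16 (PLZF), Zbtb7b (ThPOK), Bcl6, Zbtb7a (LRF) and Zbtb32 (ROG). They were taken by symbol from the expression tables, which hold 24475 genes, and every peak that the authors' lists name for one of the 5 genes was added. That gave 78 of the 215616 peaks in 8 lists, which fell on 33 separate sites when overlapping peaks were joined.

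BTB zinc finger proteins pair through the BTB domain, which also recruits corepressor complexes, and bind DNA through zinc fingers at the other end of the protein. In lymphocytes they act largely as lineage switches. PLZF gives innate-like T cells their effector character and marks precursors of innate lymphoid cells, ThPOK holds thymocytes to the CD4 helper fate, and Bcl6 directs follicular helper T cells and germinal centre B cells. LRF works beside ThPOK in CD4 T cells and ROG is known as a repressor of GATA3 activity in activated T cells. Bcl11b, the targeted gene, is a zinc finger factor without a BTB domain that T-lineage commitment and group 2 innate lymphoid cells need.

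The RNA libraries came from 4 groups of 2 libraries. ILC2/b6, an established line of group 2 innate lymphoid cells kept in medium holding IL-33, IL-7 and IL-2, each 10 ng/ml, was transduced with a Bcl11b guide or a control guide, each carried with a CFP marker, and Scid.adh.2c2, a pro-T-like lymphoma line, was treated in the same way. The labels do not say whether libraries of a group came from separate cultures, so p-values measure only the spread between these libraries. ChIP-seq of Bcl11b, GATA3, Runx1 and Runx3 gave 1 peak list per factor and line from both replicate libraries together, in cells without either guide in the labels.

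The libraries held 35.0 to 38.7 M reads in ILC2/b6 and 34.7 to 43.7 M reads in Scid.adh.2c2. Bcl11b mRNA was 7.04 and 7.24 RPKM with the Bcl11b guide, against 6.85 and 6.33 RPKM with the control guide, in ILC2/b6. It was 47.1 and 46.8 RPKM with the Bcl11b guide, against 47.0 and 49.5 RPKM with the control guide, in Scid.adh.2c2. Neither difference passed the limma test (adjusted p = 0.278 in ILC2/b6 and 0.455 in Scid.adh.2c2), though in Scid.adh.2c2 the log2 fold change was -0.17 after median-centring (adjusted p = 0.00856) and -0.11 after quantile normalization of the libraries (adjusted p = 0.046). Since a shifted reading frame can leave mRNA abundance as it was, these values are no test of the labels. In ILC2/b6, 9 of 10 ILC2 markers but none of 8 pro-T markers reached 1 RPKM in at least 2 libraries, and all 8 pro-T markers did in Scid.adh.2c2. The ILC2 markers were not confined to ILC2/b6, since 6 of the 10 also reached it in Scid.adh.2c2. Their sum there was 191 to 199 RPKM with the control guide. The summed level of the pro-T markers in Scid.adh.2c2 was 780 to 787 RPKM with the Bcl11b guide and 1080 to 1090 RPKM with the control guide, and that of the ILC2 markers in ILC2/b6 was 5840 to 5990 RPKM with the Bcl11b guide and 8260 to 8430 RPKM with the control guide. The members did not all move with the sums: 2 ILC2 markers rose and 3 fell in ILC2/b6, and 2 pro-T markers rose and 5 fell in Scid.adh.2c2. The 9 mast cell or basophil markers summed to 899 to 903 RPKM with the Bcl11b guide and 426 to 514 RPKM with the control guide in ILC2/b6, with Ms4a2 at 0 in all 4 libraries. In Scid.adh.2c2 they summed to 62.9 to 63.1 RPKM with the Bcl11b guide and 21.5 to 23.9 RPKM with the control guide, with Fcer1a, Tpsb2, Tpsab1 and Mcpt4 at 0. Only 1 of the 9 reached 1 RPKM in at least 2 Scid.adh.2c2 libraries, and it rose. In ILC2/b6, 6 of the 9 did, of which 5 rose and 0 fell. The part of these marker shifts in the results below was not tested. Fewer cells of a type and less RNA per cell cannot be told apart in such bulk samples.

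Promoter windows from RefSeq were available for 4 of the genes. The 2 shown are those at whose start sites the authors' lists have a peak. At Zbtb7a the GATA3 peaks of ILC2/b6 and Scid.adh.2c2 span the start site, with centres 91 and 85 bases past it and so beyond the end of the window, and at Bcl6 the Runx3 and Runx1 peaks of ILC2/b6 are centred 45 bases past and at -41 bases from it. Each runs from 250 bases before to 50 bases after the start site, in the direction of transcription, on GRCm38.p6, at chr10:81136021-81136320 (plus strand) for Zbtb7a and chr16:23988803-23989102 (minus strand) for Bcl6. Capitals mark GATA words, which are AGATAA and its variants TGATAA, with AGATAG as another and TGATAG as the last, and Runx words, which are TGTGGT and also TGCGGT, on either strand.
Zbtb7a: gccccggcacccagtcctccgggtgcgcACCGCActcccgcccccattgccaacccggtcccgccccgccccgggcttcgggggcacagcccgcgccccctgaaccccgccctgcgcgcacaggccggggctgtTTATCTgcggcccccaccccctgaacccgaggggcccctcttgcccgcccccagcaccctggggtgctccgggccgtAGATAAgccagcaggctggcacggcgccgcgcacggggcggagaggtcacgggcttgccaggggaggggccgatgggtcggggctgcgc
Bcl6: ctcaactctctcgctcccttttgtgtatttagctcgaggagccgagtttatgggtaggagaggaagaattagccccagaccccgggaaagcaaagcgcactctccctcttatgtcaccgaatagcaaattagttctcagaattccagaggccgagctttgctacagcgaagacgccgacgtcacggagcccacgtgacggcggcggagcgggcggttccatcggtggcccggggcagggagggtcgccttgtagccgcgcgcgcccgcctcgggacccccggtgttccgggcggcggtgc

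The Zbtb7a window held 2 GATA words, TTATCT beginning 116 bases and AGATAA beginning 39 bases before the start site, and 1 Runx word, ACCGCA, beginning 222 bases before it. At least 1 GATA word stood in 29.8% of 32851 windows of this length, and at least 2 in 7.77%. The Bcl6 window held none of these words, and a Runx word stood in 22.4% of all windows. Peaks are on mm9 and windows on GRCm38.p6, so they share only their distance from an annotated start site, which may differ between the builds. A match describes the letters and is no evidence of binding.

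The order of the 5 genes by RPKM, a level per kilobase of transcript, differed between the lines. The lines are in tables normalized separately, so levels set across them are a description. In ILC2/b6 control libraries, Zbtb7a was highest at 19.8 ± 1.03 RPKM, followed by Zbtb32 at 11.4 ± 1.21, Zbtb7b at 6.29 ± 0.469 and Bcl6 at 0.376 ± 0.0163 RPKM (SD, n = 2), and Zbtb16 had no read. In Scid.adh.2c2 control libraries, Zbtb7b was highest at 15.4 ± 0.226 RPKM, followed by Zbtb7a at 10.5 ± 0.392 and Bcl6 at 2.66 ± 0.0134 RPKM. Zbtb16 at 0.140 ± 0.0403 and Zbtb32 at 0.120 ± 0.0601 RPKM came last there and did not differ beyond their spread.

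**Figure D1:**
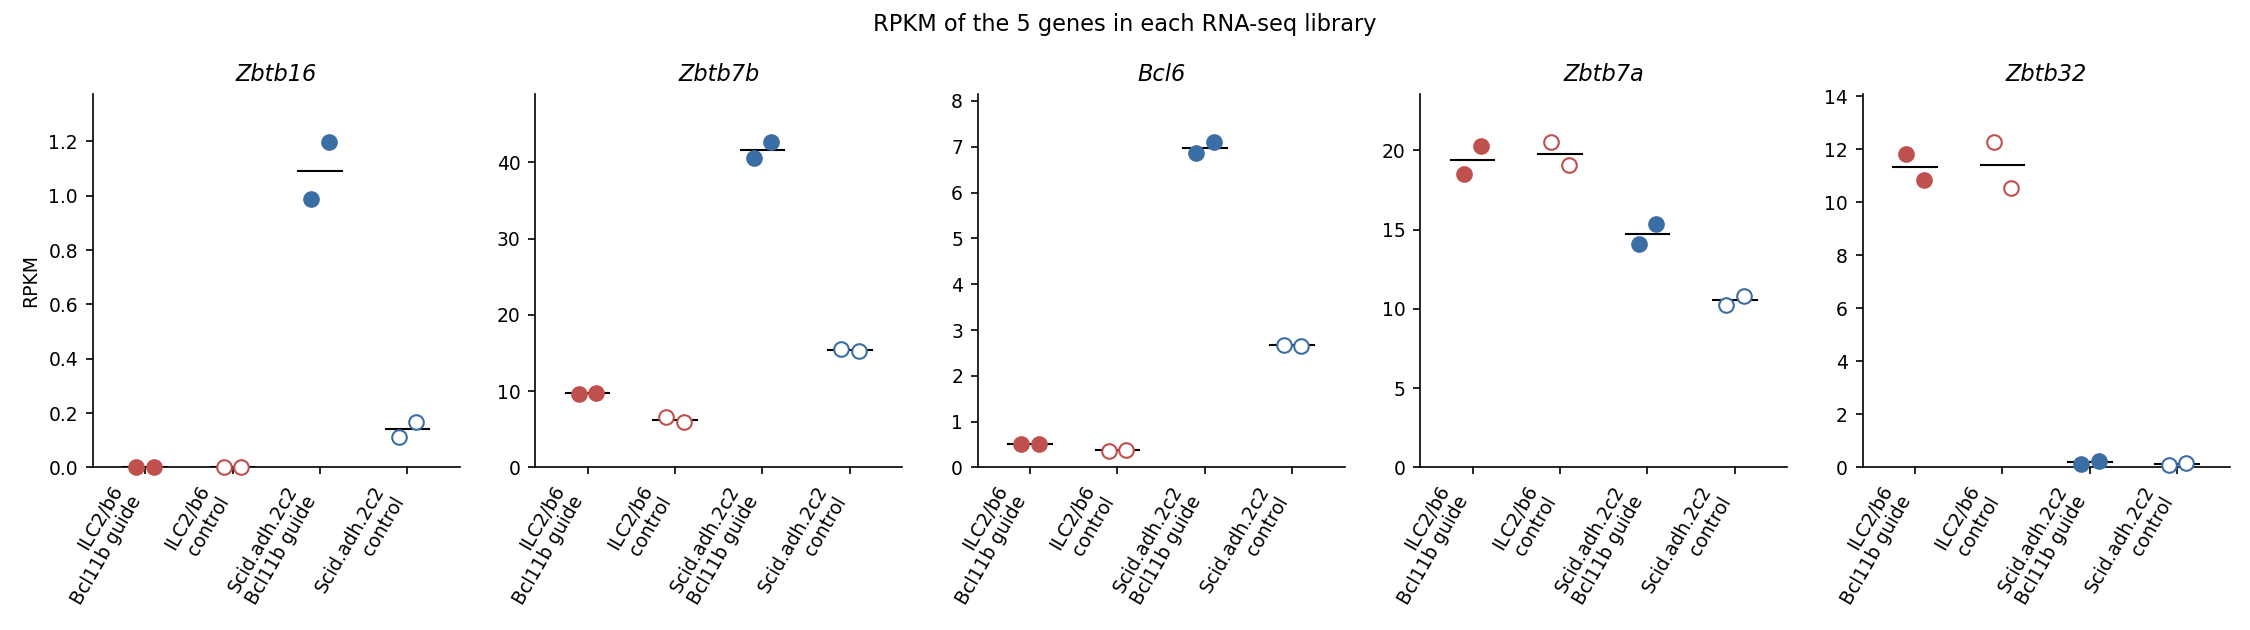
RPKM of each gene (vertical axes, separate scales from 0) in the 8 RNA libraries, with the Bcl11b guide as filled points, the control guide as open points, ILC2/b6 in red, Scid.adh.2c2 in blue and the group mean as a line. Zbtb16 lies at 0 in ILC2/b6 and at 0.988 and 1.197 RPKM with the Bcl11b guide in Scid.adh.2c2, and Zbtb32 lies above 10 RPKM only in ILC2/b6.

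Changes with the Bcl11b guide were tested over all genes that reached 1 RPKM in 2 or more libraries of a line, on log2(RPKM + 0.5) with limma, and called at an adjusted p under 0.05. A fold change on this scale understates the change of low genes. In ILC2/b6, 14.5% of the 10526 tested genes were called, 8.32% higher and 6.21% lower. In Scid.adh.2c2, 57.8% of the 10221 tested genes were called, 35.1% higher and 22.7% lower. Zbtb7a, Zbtb7b and Zbtb32 passed the filter in ILC2/b6, where 1 of the 3 was called higher, and Zbtb7a, Zbtb7b and Bcl6 passed it in Scid.adh.2c2, where all 3 were called higher. The members that did not pass were fitted without the filter, except Zbtb16 in ILC2/b6, which had no read and so no change to test. None of the genes fitted was called lower in either line.

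Zbtb16, encoding PLZF, lies at chr9:48462402-48644050 (mm9, minus strand). No read fell on it in any ILC2/b6 library with either guide, where 3 reads would have been 0.0152 to 0.0168 RPKM. In Scid.adh.2c2 it had 0.988 and 1.197 RPKM with the Bcl11b guide, against 0.112 and 0.169 RPKM with the control guide. These values rest on 206 and 246 reads with the Bcl11b guide and 25 and 30 reads with the control guide, and the groups did not overlap. The means, 1.09 ± 0.148 and 0.140 ± 0.0403 RPKM (SD, n = 2 each), differed 7.78-fold. Only 1 library reached 1 RPKM, so the gene was outside the filtered fit. Without the filter the log2 fold change was 1.31 ± 0.10 (SE, adjusted p = 0.0252), 2.31 with a pseudocount of 0.1 and 0.87 with a pseudocount of 1. The call ended when any 1 of the 4 libraries was left out, with log2 fold changes of 1.22 to 1.41 and adjusted p-values of 0.094 to 0.126 in limma. It also ended with the replicate number as a block (adjusted p = 0.0811), and it held in a joint fit of the 8 libraries (adjusted p = 0.00052).

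Zbtb7b, encoding ThPOK, lies at chr3:89181566-89197300 (mm9, minus strand). It rose with the Bcl11b guide in both lines. In ILC2/b6 it had 9.70 and 9.73 RPKM with the Bcl11b guide, against 6.62 and 5.96 RPKM with the control guide, a log2 fold change of 0.59 ± 0.06 (adjusted p = 0.00154). In Scid.adh.2c2 it had 40.6 and 42.6 RPKM with the Bcl11b guide, against 15.6 and 15.3 RPKM with the control guide, a log2 fold change of 1.4 ± 0.05 (adjusted p = 4.95e-07). The groups did not overlap in either line. In ILC2/b6 the call ended without the filter on low values (adjusted p = 0.147 in limma). The difference of the guide effects, ILC2/b6 minus Scid.adh.2c2, was -0.81 ± 0.08 (adjusted p = 2.11e-05 in the limma interaction). In that contrast 45.8% of the 9147 tested genes were called, and 28.0% of the 9147 were called in the negative direction like Zbtb7b.

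The noncoding gene Gm15417 starts within Zbtb7b on the opposite strand and runs to chr3:89202701. It had 0.742 and 0.957 RPKM with the Bcl11b guide, against 0.311 and 0.156 RPKM with the control guide, in ILC2/b6. In Scid.adh.2c2 it had 3.74 and 3.64 RPKM with the Bcl11b guide, against 0.719 and 0.650 RPKM with the control guide. The library kit does not mark strand by its name, so reads of the 2 genes cannot be told apart where they overlap. Gm15417 was higher with the Bcl11b guide in all libraries of both lines, and was the only gene in the tables whose span overlaps one of the 5.

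Bcl6, the repressor that directs follicular helper T cells and germinal centre B cells, lies at chr16:23965136-23988938 (mm9, minus strand). In ILC2/b6 it was low, with 0.507 and 0.512 RPKM (69 and 63 reads) with the Bcl11b guide, against 0.365 and 0.388 RPKM (48 reads in each library) with the control guide. The groups did not overlap, but without the filter the log2 fold change of 0.20 ± 0.02 did not pass the test (adjusted p = 0.148 in limma). In Scid.adh.2c2 it rose to 6.86 and 7.10 RPKM with the Bcl11b guide, against 2.67 and 2.66 RPKM with the control guide. That log2 fold change was 1.24 ± 0.07 (adjusted p = 1.08e-05). The difference of the guide effects, fitted without the filter, was -1.04 ± 0.05 for ILC2/b6 minus Scid.adh.2c2 (adjusted p = 0.000531 in the limma interaction).

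Zbtb7a, encoding LRF, lies at chr10:80599016-80614402 (mm9, plus strand). In ILC2/b6 it had 18.5 and 20.3 RPKM with the Bcl11b guide, against 20.5 and 19.0 RPKM with the control guide. The groups overlapped and the log2 fold change of -0.03 ± 0.06 did not pass the test (adjusted p = 0.79 in limma). In Scid.adh.2c2 it rose to 14.1 and 15.4 RPKM with the Bcl11b guide, against 10.3 and 10.8 RPKM with the control guide, a log2 fold change of 0.46 ± 0.06 (adjusted p = 0.000757). Without the filter that call ended (adjusted p = 0.0537). The difference of the guide effects was -0.49 ± 0.09 for ILC2/b6 minus Scid.adh.2c2 (adjusted p = 0.00157 in the limma interaction).

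Zbtb32, encoding ROG, lies at chr7:31374700-31377961 (mm9, minus strand). In ILC2/b6 it had 11.8 and 10.8 RPKM with the Bcl11b guide, against 12.3 and 10.5 RPKM with the control guide, and the groups overlapped. The log2 fold change was -0.01 ± 0.08 (adjusted p = 0.968 in limma). In Scid.adh.2c2 it had 0.125 and 0.253 RPKM (9 and 18 reads) with the Bcl11b guide, against 0.078 and 0.163 RPKM (6 and 10 reads) with the control guide. These groups also overlapped, and without the filter the log2 fold change of 0.15 ± 0.15 did not pass the test (adjusted p = 0.723). The difference between the lines was -0.16 ± 0.20 without the filter (adjusted p = 0.787).

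**Figure D2:**
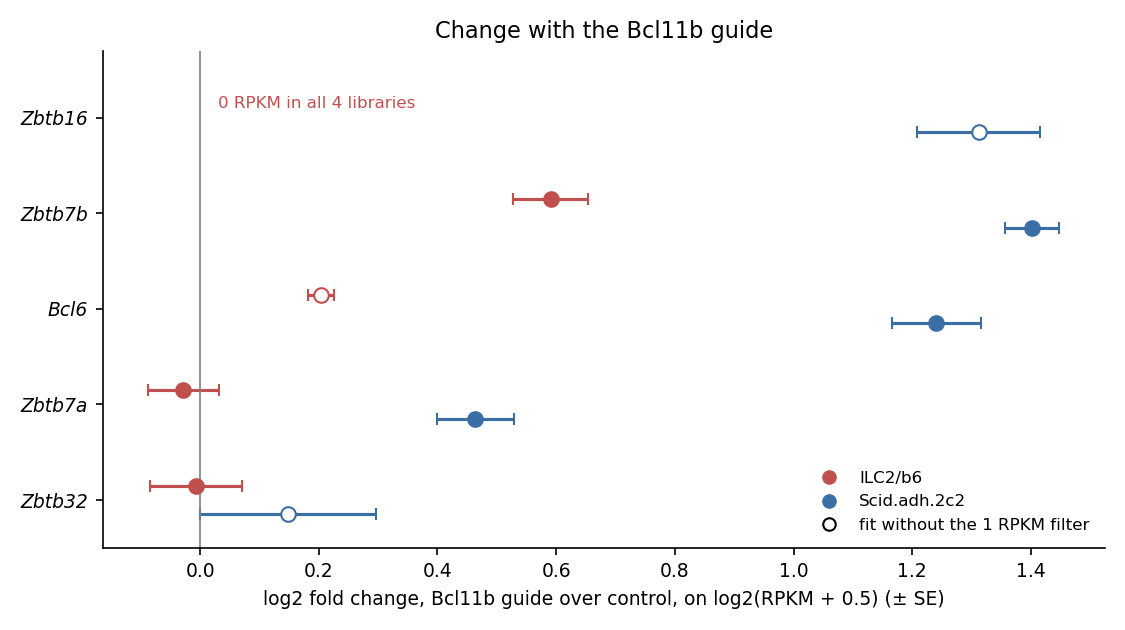
Log2 fold change of each gene with the Bcl11b guide over the control guide (horizontal axis, on log2(RPKM + 0.5), ± SE) in ILC2/b6 (red) and Scid.adh.2c2 (blue), with open points for genes fitted without the filter. In Scid.adh.2c2 Zbtb7b, Zbtb16 and Bcl6 lie at 1.4, 1.31 and 1.24, and in ILC2/b6 Zbtb7b lies at 0.59 with the other genes fitted at or below 0.20.

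The genes whose log2(RPKM + 0.5) followed each member most closely over the 8 libraries were found by Pearson correlation, a description in which the difference between the lines weighs heavily. Zbtb7b was followed by St6galnac6 (r = 0.9992), Creg1 (0.9963) and Itpkb (0.9956). Bcl6 was followed by Nub1 and Ms4a6d (0.9996 each) and Ifi203 (0.9994). Zbtb7a was followed by Sema4b (0.9966), Atn1 (0.9954) and Gm19897 (0.9951), and Zbtb32 by Plxnb2 and S100a13 (0.9995 each) and Chst10 (0.9993). Zbtb16 passed the filter in neither line and was not compared in this way.

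Peaks were assigned to genes by the name in the authors' lists, and scores are the authors' and rank peaks only within a list. The GATA3 lists give a gene name to every peak, while 7.37% to 8.31% of the peaks in each other list carry none, so the lists were not named alike. Peaks inside one of the 5 genes, on one of their sites or nearest to one of their start sites, but named for another gene or for none, are therefore given beside the named ones. This step was chosen after the data were seen. At least 1 Bcl11b peak was named for Zbtb7a, Zbtb32 and Bcl6 in ILC2/b6, where 39.2% of all genes had one. In Scid.adh.2c2 it was Zbtb16, Zbtb7a, Zbtb7b and Bcl6, where 37.8% had one. The longer a gene and its surroundings, the more peaks can be named for it, so these counts are not read as a property of the family.

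Zbtb16 held most of the Bcl11b peaks of the 5 genes in the pro-T line and none in the ILC2 line. By name it had 7 Bcl11b peaks in Scid.adh.2c2, and 187 of the 9259 genes with a peak in that list (2.02%) had as many or more. In ILC2/b6 it had no Bcl11b and no Runx1 peak, 1 GATA3 peak and 4 Runx3 peaks. In Scid.adh.2c2 it had 3 GATA3, 4 Runx1 and 7 Runx3 peaks besides. Genes with a peak made up 50.2% (GATA3), 41.4% (Runx1) and 57.8% (Runx3) of all genes in ILC2/b6, and 54.1%, 33.0% and 42.1% in Scid.adh.2c2. Inside the 182 kb transcribed span, whatever their gene name, lay 10 Bcl11b, 8 GATA3, 6 Runx1 and 10 Runx3 peaks of Scid.adh.2c2. The same span held 0 Bcl11b, 1 GATA3, 0 Runx1 and 4 Runx3 peaks of ILC2/b6.

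Most of the named peaks lay in intron 2 of Zbtb16. The highest-scoring site was 40.6 kb downstream of the start site, at chr9:48603260-48603600 (mm9). There the ILC2/b6 lists had a GATA3 peak of score 51.3 (rank 6102 of 33709) and a Runx3 peak of score 66.6 (rank 14487 of 44938). The Scid.adh.2c2 lists had a GATA3 peak of score 210.2 (rank 497 of 36973), a Bcl11b peak of 45.2 (rank 3693 of 17874), a Runx3 peak of 54.1 and a Runx1 peak of 34.5. At 31.2 kb, Scid.adh.2c2 again had all 4 factors, with scores of 81.8 for GATA3, 35.5 for Runx1, 30.9 for Runx3 and 25.5 for Bcl11b, and ILC2/b6 had a Runx3 peak of 17.2. At 16.1 kb Scid.adh.2c2 had GATA3 (61.2), Runx3 (27.5) and Bcl11b (27.3) without Runx1, and ILC2/b6 had no peak. At 29.3 kb ILC2/b6 had a Runx3 peak of 43.0, and Scid.adh.2c2 had Bcl11b (34.4) and Runx3 (22.3). The only site of ILC2/b6 alone, at 18.5 kb, held a Runx3 peak of 35.4.

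The remaining Zbtb16 peaks were found in Scid.adh.2c2 alone. Bcl11b, Runx1 and Runx3 peaks with scores of 33.1, 15.3 and 19.5 lay at 21.3 kb, and peaks of 16.8, 17.8 and 24.5 lay at 95.7 kb in intron 3. A Runx3 peak of 16.9 lay at 60.9 kb, and a Bcl11b peak of 16.7 lay 24.6 kb upstream of the start site. Peaks named for the next gene, Nnmt, also lay inside Zbtb16. Among them were Bcl11b (30.9), Runx1 (33.9), Runx3 (45.3) and GATA3 (25.4) peaks about 120.7 kb from the start site, and near the 3' end at 179.97 kb a GATA3 peak of 161.4 (rank 867 of 36973) with a Bcl11b peak of 16.0. Over all lists, 8 of the 9 Zbtb16 sites had a peak in Scid.adh.2c2 and 4 in ILC2/b6, with 3 in both.

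**Figure D3:**
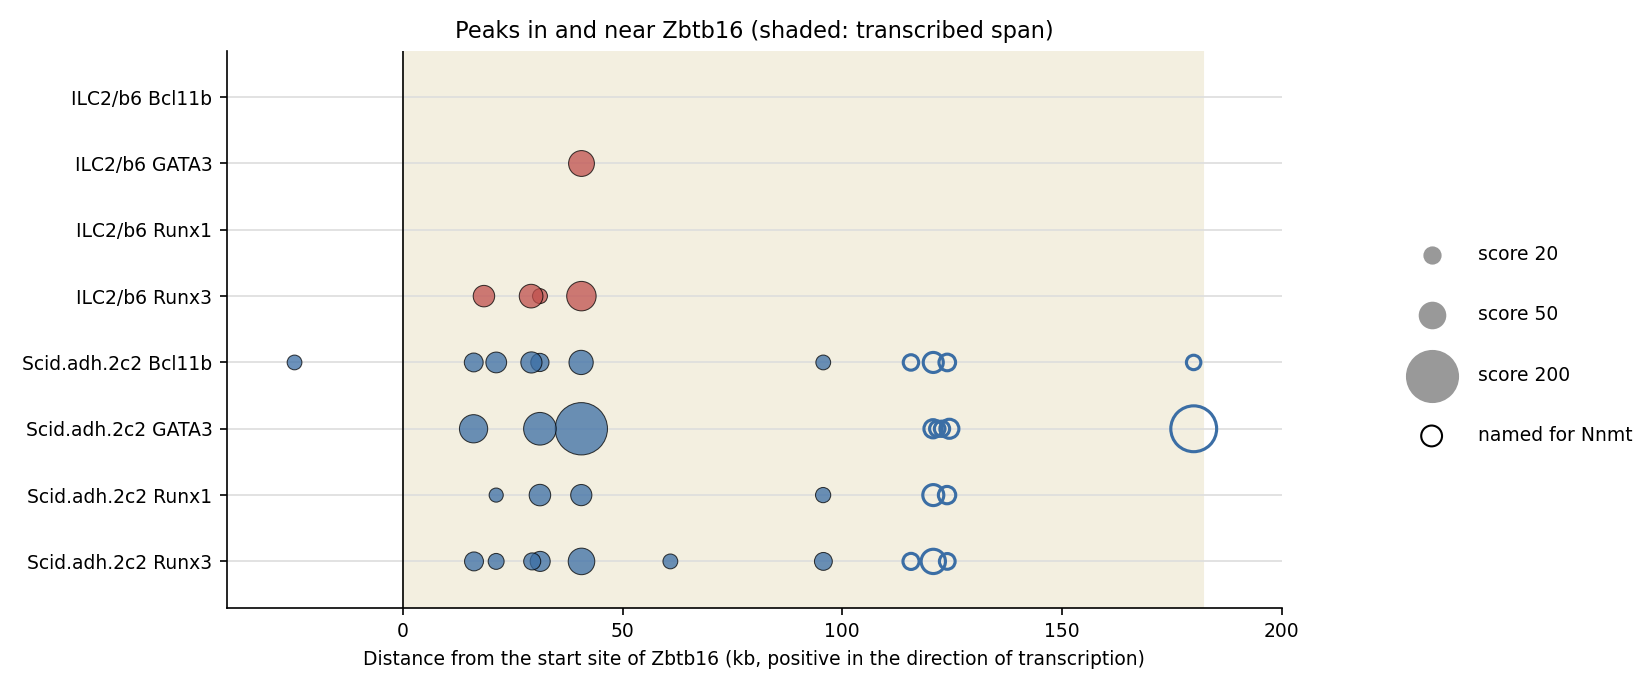
Peaks of the 4 factors in ILC2/b6 (red, upper rows) and Scid.adh.2c2 (blue, lower rows) by distance from the Zbtb16 start site in kb, with the area of each circle proportional to the authors' score, filled circles for peaks named for Zbtb16, open circles for peaks named for Nnmt and the 182 kb transcribed span shaded. The Bcl11b and Runx1 rows of ILC2/b6 are empty, and the largest circles are the Scid.adh.2c2 GATA3 peaks at 40.6 kb (210.2) and 179.97 kb (161.4).

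Zbtb7b had its peaks on 1 promoter site, at chr3:89197509-89197859 (mm9), 0.4 kb upstream of the start site. In ILC2/b6 this site held a Bcl11b peak of score 82.5 (rank 1238 of 21677), Runx3 (52.4) and Runx1 (42.4). In Scid.adh.2c2 it held a Bcl11b peak of score 104.6 (rank 396 of 17874), Runx1 (48.0) and Runx3 (31.3). The ILC2/b6 Bcl11b peak is named for Gm15417, which is transcribed away from Zbtb7b, so the count by name gave Zbtb7b no Bcl11b peak in that line although both lines had one at the site. A second place, 7.68 kb inside the gene and nearest to an alternative Zbtb7b start site, held only peaks without a gene name. There ILC2/b6 had Runx3 (17.0) and Scid.adh.2c2 had Bcl11b (24.9), Runx1 (34.9) and Runx3 (77.1). No GATA3 peak lay on either, and 1 GATA3 peak of Scid.adh.2c2 (19.1) lay elsewhere in the gene.

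By name Bcl6 had 4 GATA3 peaks in ILC2/b6 and 9 in Scid.adh.2c2. Bcl11b and Runx peaks without a gene name lay in the same region, so these counts do not compare the factors. The GATA3 peak with the highest score lay 162.6 kb upstream, with a score of 111.3 (rank 1418 of 33709) in ILC2/b6 and 265.9 (rank 289 of 36973) in Scid.adh.2c2. Peaks without a gene name lay next to it. In ILC2/b6 these were Bcl11b (47.2), Runx1 (75.3) and Runx3 (198.6) peaks with gaps of 94, 104 and 113 bp, and in Scid.adh.2c2 Bcl11b (48.0), Runx1 (52.7) and Runx3 (93.9) peaks with gaps of 104, 76 and 166 bp. Which gene this distal region serves was not measured.

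Near the Bcl6 start site the lines had peaks at different positions. In ILC2/b6, Runx1 (128.0, rank 1346 of 26258) and Runx3 (85.0) peaks lay on the start site, and a Bcl11b peak (46.0) lay 0.31 kb past it, in the first intron. In Scid.adh.2c2 none of these sites had a peak, and Bcl11b (28.5), Runx1 (30.5) and Runx3 (29.7) peaks lay 2.6 kb upstream. Scid.adh.2c2 also had Bcl11b (30.1), Runx1 (16.3) and Runx3 (40.3) peaks without a gene name about 4.4 kb inside the gene. Of the 12 Bcl6 sites, 6 had a peak in ILC2/b6, 10 in Scid.adh.2c2 and 4 in both, and the 4 shared ones held only GATA3 peaks in both lines.

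Zbtb7a had 9 sites, all with a peak in ILC2/b6 and 4 with a peak in Scid.adh.2c2. The site at -6.8 kb was the only one of the gene with Bcl11b in both lines. It had scores of 39.0 for Bcl11b and 100.1 for Runx3 in ILC2/b6, and of 44.1 for Bcl11b, 46.7 for Runx3 and 22.0 for Runx1 in Scid.adh.2c2. A Bcl11b peak of 68.1 at -1.8 kb (rank 2004 of 21677) was found in ILC2/b6 alone. GATA3 peaks that span the start site, with centres past the end of the printed window, had scores of 38.7 in ILC2/b6 and 34.8 in Scid.adh.2c2. Scid.adh.2c2 also had a Bcl11b peak of 22.4 centred 305 bases past the start site, outside that window. In the first intron at 1.1 kb both lines had Runx1 and Runx3 peaks, of 35.8 and 102.4 in ILC2/b6 and 33.7 and 46.7 in Scid.adh.2c2. Further Runx peaks at 2.1, 10.3 and 15.4 kb, with scores of 29.3 to 76.6, were found in ILC2/b6 alone.

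Zbtb32, which was expressed in ILC2/b6 and had at most 18 reads in a Scid.adh.2c2 library, had peaks in ILC2/b6 alone. At -0.6 kb these were Runx3 (69.6), Runx1 (45.3) and Bcl11b (27.0) peaks, and at -1.8 kb a Runx1 peak (27.2). No GATA3 peak of either line was named for it.

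**Figure D4:**
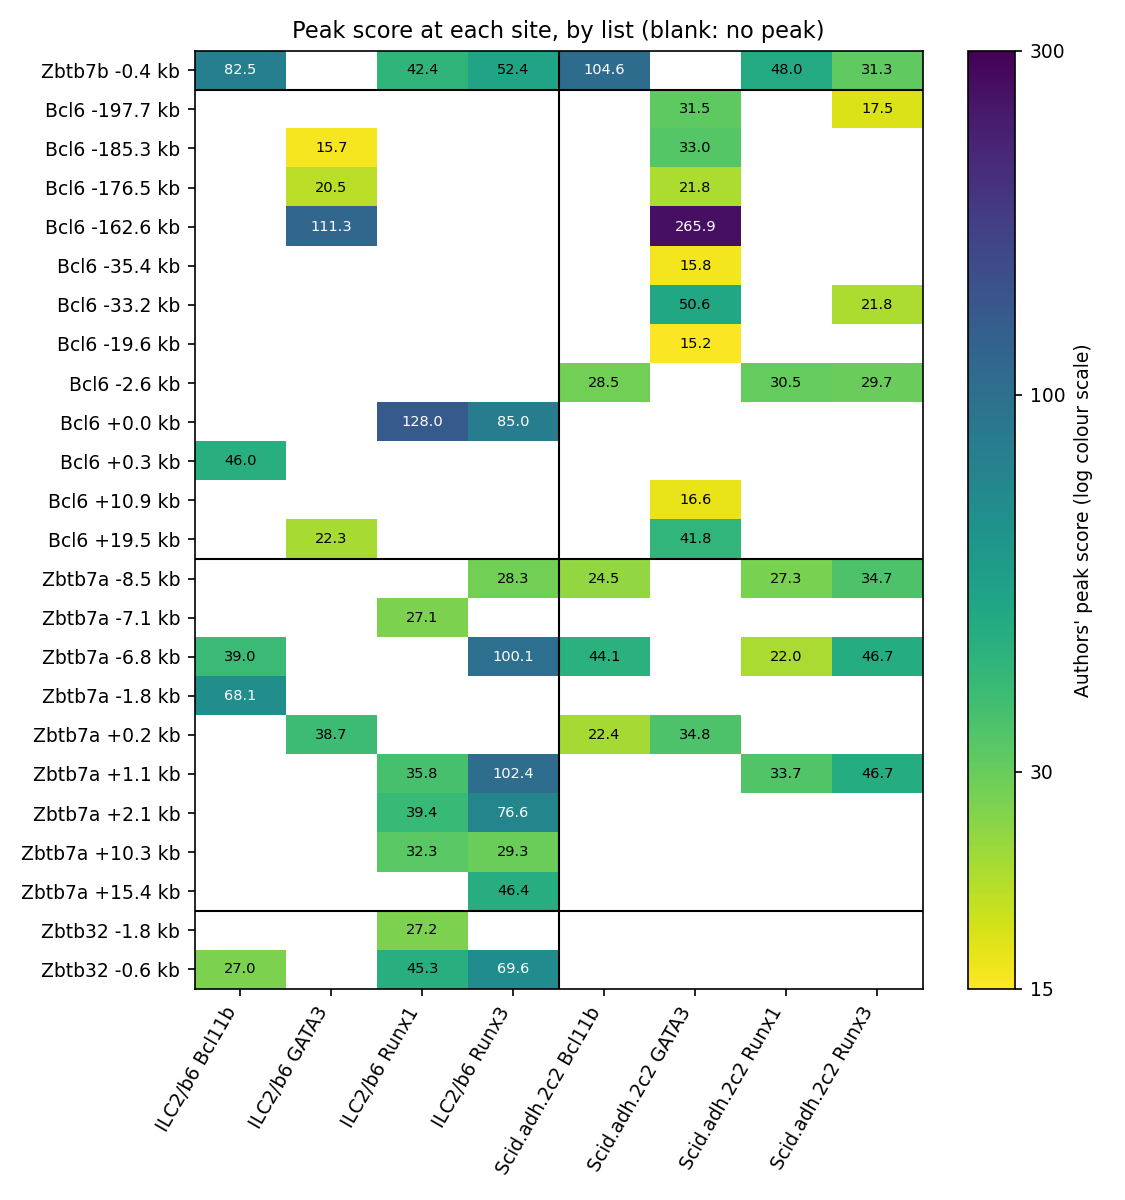
Authors' peak score (colour, log scale, and printed number) at each site of Zbtb7b, Bcl6, Zbtb7a and Zbtb32 (rows, by mean distance from the start site in kb) in the 4 lists of ILC2/b6 (left) and the 4 of Scid.adh.2c2 (right), counting any overlapping peak whatever its gene name and leaving cells without a peak blank. The Zbtb7b promoter site has Bcl11b scores of 82.5 and 104.6, and the Zbtb32 rows are filled only on the left.

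Overlap of Bcl11b with its partners at these genes was set beside all Bcl11b peaks of the line, counting an overlap of at least 1 bp. Of the 4 ILC2/b6 Bcl11b peaks named for the genes, 1 overlapped a Scid.adh.2c2 Bcl11b peak, against 35.6% of all ILC2/b6 Bcl11b peaks. Counting peaks of any name on the sites of the 5 genes, which adds the one on the Zbtb7b promoter, 2 of 5 ILC2/b6 Bcl11b sites were shared. Of the 12 in Scid.adh.2c2, 2 overlapped an ILC2/b6 Bcl11b peak, against 43.1% of all. A Runx1 or Runx3 peak of the same line overlapped 2 of 4 in ILC2/b6 (88.1% of all) and 10 of 12 in Scid.adh.2c2 (76.3% of all). The ILC2/b6 Bcl11b peak on the Zbtb7b promoter is outside these 4 by its name, and it overlapped Runx1 and Runx3 peaks. The Bcl6 one, counted as without a Runx peak, ends at chr16:23988756, and a Runx3 peak starts at chr16:23988767. A GATA3 peak overlapped 0 of 4 in ILC2/b6 (35.0% of all) and 4 of 12 in Scid.adh.2c2 (19.3% of all). Of those 4, 3 were in intron 2 of Zbtb16. Each list is a pooled set, so these shares have no replicate error.

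No tested one of 44 other BTB zinc finger genes moved as far as Zbtb7b in either line. In ILC2/b6, 1 of the 35 tested rose and none fell (14.5% of all tested genes were called), with a median log2 fold change of 0.08 (0.02 over all genes tested). Zbtb38 was the one, with 11.8 ± 0.135 RPKM with the Bcl11b guide and 9.64 ± 0.0488 RPKM with the control guide (log2 fold change 0.28, adjusted p = 0.00977 in limma). In Scid.adh.2c2, 4 of the 32 tested rose and 3 fell (57.8% of all tested genes were called), with a median of 0.06 (0.05 over all genes tested). Patz1, a BTB factor that also acts in CD4 and CD8 choice, fell to 16.0 ± 0.0368 RPKM with the Bcl11b guide, against 22.9 ± 0.139 RPKM with the control guide (-0.50, adjusted p = 8.2e-05). Zbtb5, Zbtb38 and Zbtb24 rose by log2 fold changes of 0.48, 0.47 and 0.38. With median-centred values 3 rose and 10 fell in Scid.adh.2c2, because centring moved the median of all tested genes to -0.08, against 0.05 without it.

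**Figure D5:**
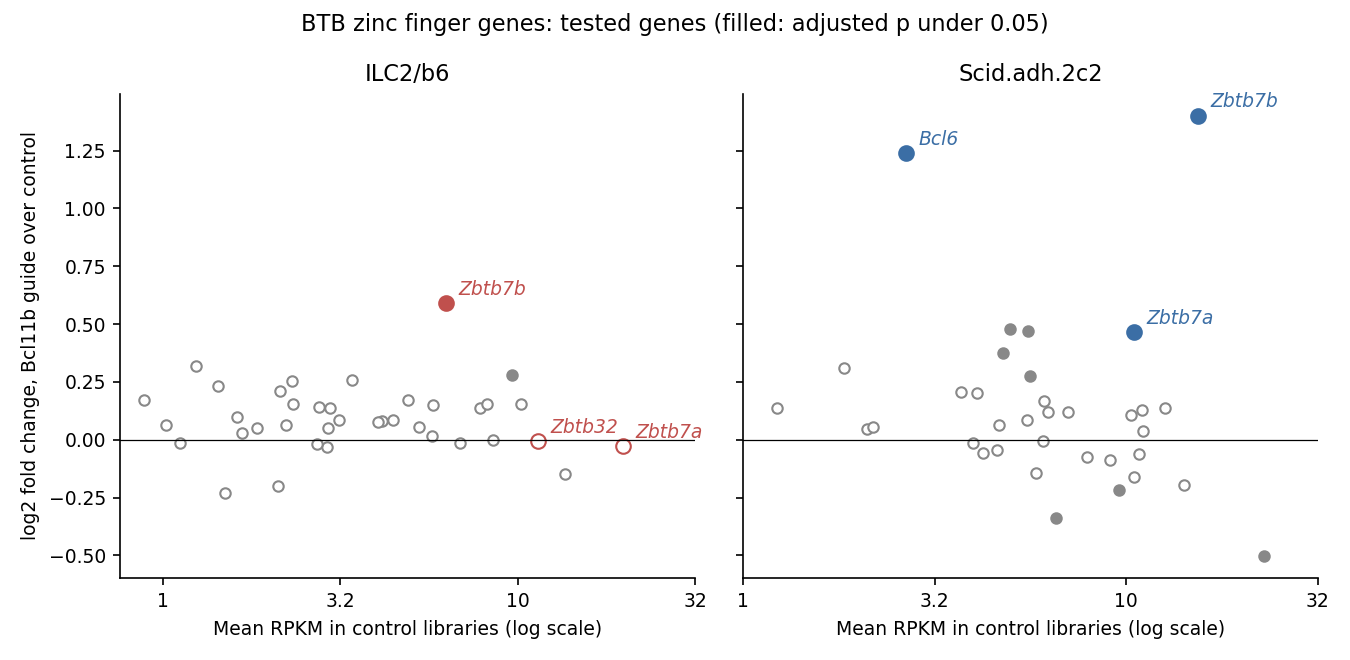
Log2 fold change with the Bcl11b guide over the control guide (vertical axis, on log2(RPKM + 0.5)) of every tested BTB zinc finger gene by its mean RPKM in control libraries (horizontal axis, log scale) in ILC2/b6 (left) and Scid.adh.2c2 (right). Members are coloured and named, other genes grey, and filled points had an adjusted p under 0.05: Zbtb7b lies highest in both lines at 0.59 and 1.4, and Bcl6 next to it in Scid.adh.2c2 at 1.24.

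Of 20 corepressors and cofactors linked to BTB factors, all 20 were tested in ILC2/b6. There 1 rose and 1 fell (median log2 fold change 0.03), against 8.32% and 6.21% of all tested genes. Ncor1, the nuclear receptor corepressor, rose by 0.19 and Sin3b, a corepressor scaffold, fell by 0.14. In Scid.adh.2c2, 9 of 19 rose and 2 fell (median 0.06), against 35.1% and 22.7% of all tested genes. With median-centred values 5 rose and 4 fell. Hdac5, a class IIa histone deacetylase, rose to 10.8 ± 0.598 RPKM with the Bcl11b guide, against 1.43 ± 0.0361 RPKM with the control guide (2.55, adjusted p = 4.17e-07 in limma). Hdac7, of the same class, fell to 34.4 ± 0.225 RPKM with the Bcl11b guide, against 69.3 ± 3.05 RPKM with the control guide (-1.0, adjusted p = 1.94e-06). Sin3b rose by 0.43 in this line.

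Of 24 genes known from PLZF-expressing innate-like T cells and innate lymphoid precursors, 11 were tested in ILC2/b6. There 3 rose and 1 fell (median -0.01), against 8.32% and 6.21% of all tested genes. Il18rap, a subunit of the IL-18 receptor, rose by 0.48, Icos, a costimulatory receptor, by 0.45 and Cd44, an adhesion receptor, by 0.24, while Il4 fell by 0.37. In Scid.adh.2c2, 9 of 12 rose and 2 fell (median 1.70), against 35.1% and 22.7% of all tested genes. Il2rb, a receptor chain shared by IL-15 and IL-2, reached 126 ± 0.428 RPKM with the Bcl11b guide, against 1.68 ± 0.210 RPKM with the control guide (5.86, adjusted p = 1.76e-08 in limma). Tbx21, encoding T-bet, reached 56.0 ± 1.35 RPKM with the Bcl11b guide, against 3.84 ± 0.0283 RPKM with the control guide (3.70, adjusted p = 2.33e-08). Cxcr6, a chemokine receptor, and Il4 rose by 3.47 and 2.59. Cxcr6 and Il4 reached 1 RPKM only with the Bcl11b guide, so they could enter this list's count only as rises. Zbtb16 itself stood at 0 in ILC2/b6 and at about 1 RPKM in Scid.adh.2c2 with the guide.

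Of 23 genes of the Bcl6 circuit, 17 were tested in ILC2/b6. There 2 rose and 4 fell (median -0.01), against 8.32% and 6.21% of all tested genes. Id3, an inhibitor of E proteins, rose to 9.45 ± 0.497 RPKM with the Bcl11b guide, against 5.79 ± 0.128 RPKM with the control guide (0.66, adjusted p = 0.000804 in limma). S1pr1, a receptor for lymphocyte egress, Irf4 and Prdm1, which encodes the Bcl6 antagonist Blimp-1, fell, with log2 fold changes of -0.66, -0.39 and -0.25. In Scid.adh.2c2, 7 of 13 rose and 6 fell (median 1.02), against 35.1% and 22.7% of all tested genes. Klf2, Prdm1 and Irf4 reached 1 RPKM only with the Bcl11b guide there and could enter the count only as rises. Klf2, a regulator of trafficking, Id2 and Prdm1 rose by 2.29, 2.24 and 1.71, and Lef1, an HMG-box factor, fell (-2.13). Prdm1 averaged 10.3 ± 0.253 RPKM with the Bcl11b guide and 12.4 ± 0.0403 RPKM with the control guide in ILC2/b6. In Scid.adh.2c2 it averaged 1.71 ± 0.0601 RPKM with the Bcl11b guide and 0.175 ± 0.0509 RPKM with the control guide. The difference of the guide effects between the lines is not given here for this gene.

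Of 19 genes of the ThPOK and Runx3 choice between CD4 and CD8 fates, 13 were tested in ILC2/b6. There 2 rose and none fell (median -0.01), against 8.32% and 6.21% of all tested genes. Prf1, encoding perforin, rose by 0.39 and Socs1, a cytokine signal inhibitor, by 0.24. In Scid.adh.2c2, 4 of 15 rose and 6 fell (median -0.16), against 35.1% and 22.7% of all tested genes. With median-centred values 3 rose and 9 fell. Runx3, which opposes ThPOK in the CD8 lineage, rose to 18.1 ± 0.191 RPKM with the Bcl11b guide, against 3.18 ± 0.145 RPKM with the control guide (2.34, adjusted p = 2.58e-07 in limma), and Prf1, which reached 1 RPKM only with the Bcl11b guide and could enter only as a rise, rose by 2.50. Myb, a progenitor factor, fell (-1.58), and so did Lef1. Transcripts of both Zbtb7b and Runx3 were higher with the Bcl11b guide in this line.

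Of 11 genes listed with ROG around GATA3 and type 2 cytokines, NFAT genes and Cd28 included, 10 were tested in ILC2/b6. There none rose and 4 fell (median -0.13), against 8.32% and 6.21% of all tested genes. Il5 fell to 1880 ± 4.56 RPKM with the Bcl11b guide, against 2770 ± 140 RPKM with the control guide (-0.56, adjusted p = 0.000518 in limma), and Il13 to 3090 ± 88.9 RPKM with the Bcl11b guide, against 4440 ± 46.9 RPKM with the control guide (-0.52, adjusted p = 0.000487). Maf, an activator of Il4, and Il4 fell, with log2 fold changes of -0.38 and -0.37. Zbtb32 was near its detection limit in Scid.adh.2c2. In that line 6 of 8 listed genes rose and 1 fell (median 0.84), against 35.1% and 22.7% of all tested genes. Il4, which here too could enter only as a rise, Il13 and Cd28 rose by 2.59, 2.18 and 1.30, and Il10 fell by 1.58.

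Of 11 genes linked to LRF through Notch response, glycolysis and apoptosis, 8 were tested in ILC2/b6. There 1 rose and 3 fell (median -0.03), against 8.32% and 6.21% of all tested genes. Slc2a3, a glucose transporter, Pkm, a glycolytic enzyme, and Notch1 fell, with log2 fold changes of -0.53, -0.27 and -0.20, and Hes1 rose by 0.29. In Scid.adh.2c2, none of 10 rose and 7 fell (median -1.26), against 35.1% and 22.7% of all tested genes. With median-centred values 10 fell. Notch3, the pre-T-cell receptor gene Ptcra and the Notch targets Dtx1 and Nrarp fell, with log2 fold changes of -2.09, -1.92, -1.77 and -1.72. Zbtb7a rose by 0.46 in the same libraries, and a link between its rise and these falls was not tested.

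Several calls of these list genes depended on a setting. All 20 genes named in ILC2/b6 lost their call without the filter (adjusted p = 0.0617 to 0.458 in limma), and 7 lost it in a joint fit of all 8 libraries (0.0544 to 0.223). With median-centring the call of Socs1 ended in that line (0.0841), and with quantile normalization those of Hes1 and Sin3b (0.0523 to 0.0594). Without Bcl11b guide replicate 1 of that line the calls of Cd44, Hes1, Ncor1, Notch1 and Sin3b ended (0.0645 to 0.198), and without Bcl11b guide replicate 2 those of Cd44, Ncor1, Notch1, Prdm1, Sin3b, Socs1 and Zbtb38 (0.0539 to 0.257). Without control replicate 1 those of Hes1, Ncor1, Notch1 and Sin3b ended (0.0526 to 0.0743), and without control replicate 2 that of Hes1 (0.0641). Of the 26 genes that the same rule chose in Scid.adh.2c2, 3 lost their call without the filter (Il13, Zbtb24 and Zbtb38, 0.0565 to 0.11), and that of Zbtb24 ended without Bcl11b guide replicate 2 (0.109).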

How the data were processed

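For each line the authors deposited a table of RPKM values, which scale reads by transcript length and library total, and a peak score for each interval of 8 peak lists made from both replicates together on mm9, per the file headers. Per the submitters' processing notes the tools include Bowtie 1.1.1, STAR 2.4.0, RSEM 1.2.25 and HOMER, with the builds mm9 and NCBIM37, and their roles are not given.

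Depth was recovered from the steps of low RPKM values, all of which came out as whole reads within 0.1 read. Counting error only is covered by such read numbers. The test was limma 3.58.1 in R 4.3.3 with its trend option, applied to log2(RPKM + 0.5) of genes reaching 1 RPKM in 2 or more libraries per line. P-values were adjusted over all genes tested (Benjamini-Hochberg), and the difference between lines was an interaction over 8 libraries. An exact permutation test of 2 against 2 libraries cannot go below 0.333. The fit was also run on simulated data in which every gene of a line had the same spread. The outcome is not given here, and it does not bear on single calls. Alternatives were other pseudocounts, no filter, median-centring, quantile normalization, a replicate block, a joint fit and leaving out each library, and for peaks a score of at least 30, a distance within 50 kb and an overlap of 50%. Promoter windows are from RefSeq (GRCm38.p6).

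The members and gene lists were chosen with earlier results of these data known. Named were all 5 members, up to 4 called genes per list and line with the largest fold changes, and the 3 genes most correlated with each member. 1 gene that the rule chose is not reported here. Input libraries and read-level data were not used here.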

Additional observations from a re-analysis of the deposited data

Results flagged for a closer look

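The effect of the Bcl11b guide differed between the lines for 3 of the genes, by the limma interaction over 8 libraries (ILC2/b6 minus Scid.adh.2c2). The difference was -0.81 ± 0.08 for Zbtb7b (adjusted p = 2.11e-05), called under all 14 other settings. It was -0.49 ± 0.09 for Zbtb7a (adjusted p = 0.00157), likewise called under all 14. For Bcl6, fitted without the filter, it was -1.04 ± 0.05 (adjusted p = 0.000531), called under all 13 other settings. The background is high, since 45.8% of 9147 genes differed between the lines in that contrast. Without the filter, in the fit that gave the Bcl6 value, 4741 of 24475 genes were called. Pairs of libraries are too few for a search for single libraries far from their group.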

How the results depend on the processing

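Under other settings 138 of 150 fold changes of the 5 genes kept their direction and side of the threshold, and 30 of 36 counts of called genes and 25 of 32 counts of peaks stayed within 1.5 times the main count. Without the filter 3835 genes were called in Scid.adh.2c2 (5908 with it) and 133 in ILC2/b6 (1530 with it), and the calls of Zbtb7a in Scid.adh.2c2 (0.46, adjusted p = 0.0537) and Zbtb7b in ILC2/b6 (0.59, adjusted p = 0.147) ended. Leaving out 1 library gave 807 to 2099 genes in ILC2/b6, 3760 to 6878 in Scid.adh.2c2 and 3281 to 4344 in the interaction. The lowest counts came without Bcl11b guide replicate 2 in ILC2/b6 (807), where replicate 1 gave 923, and without Bcl11b guide replicate 2 in Scid.adh.2c2 (3760), where replicate 1 gave 3818. Without 1 library Zbtb7a in ILC2/b6 ranged from -0.09 to 0.04, Zbtb32 in ILC2/b6 from -0.11 to 0.10 and Zbtb16 in Scid.adh.2c2 from 1.22 to 1.41 (1.25 without control replicate 1 and 1.38 without control replicate 2). Zbtb32 in Scid.adh.2c2 stood at -0.02 without the filter and with quantile normalization. The cause was not tested. Higher genes made up 60.7% of the calls in Scid.adh.2c2, 57.3% in ILC2/b6 and 38.8% in the interaction, and 38.5%, 41.7% and 61.6% with median-centred values.

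Replicate numbers are shared by the groups. Deviations of same-numbered libraries from their group means correlated at 0.0373 in Scid.adh.2c2 and 0.106 in ILC2/b6. With 2 libraries per group, the libraries of a group mirror each other, so these values cannot decide whether same-numbered libraries were paired. With the replicate block, 5921 genes were called in Scid.adh.2c2, 2258 in ILC2/b6 and 4043 in the interaction. For Zbtb16 in Scid.adh.2c2 the block gave 1.31 with an adjusted p of 0.0811 in limma, and it changed no other call of the 5 genes.

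At a score of at least 30, peaks named for the 5 genes numbered 3 for GATA3 in ILC2/b6, and 5 for Bcl11b, 5 for Runx1 and 6 for Runx3 in Scid.adh.2c2. Bcl11b peaks with a partner peak then numbered 1 in ILC2/b6 and 3 in Scid.adh.2c2. Within 50 kb of the start site 3 GATA3 peaks remained in ILC2/b6. With peaks of other names at the genes added, Bcl11b peaks numbered 5 in ILC2/b6 and 18 in Scid.adh.2c2. Zbtb16 and Zbtb32 in Scid.adh.2c2 rest on few reads, which limits what their fold changes can show.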
